A study of Mus musculus with 22 samples.

Results

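The genes described here encode the proteins of the mitochondrial ribosome and of the machinery that brings proteins into mitochondria. They were chosen by symbol: every gene of the count table named Mrpl or Mrps followed by a digit (ribosome members), or Timm or Tomm followed by a digit (import members). The rule found 99 of the 16556 genes in the table, 76 of the ribosome (48 named Mrpl, 28 named Mrps) and 23 of import. Of these, 98 were among the 15064 genes with enough counts to be tested. The gene left out of the tests was Mrpl23, with 93 counts over all libraries.

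Their messenger RNA was counted by 3' tag sequencing, which reads each transcript near its end, in renal cortex from 22 male mice of the C57BL/6J strain, with libraries named by their titles. In Pt-CrAT mice, Crat, which encodes carnitine acetyltransferase, had been deleted in proximal tubular cells by a Cre recombinase under the Ggt promoter, and fl/fl mice carried the floxed gene. The groups were 3 fl/fl and 3 Pt-CrAT mice at 12 months with LFD in the title (a term the labels do not spell out), 3 and 3 at 15 months on chow, and 5 and 5 at 24 months on chow. Age and diet changed together, so the 12-month mice were not tested against older ones, except genotype difference against genotype difference. No label gives a litter, a cage or a day, so p-values measure only the spread between these libraries.

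Total counts were 12175804 to 17447367 per library, apart from CrAT12MLFD345 with 53157575. Crat itself, in CPM (counts scaled to the size of the library), was 54.0 to 98.0 in fl/fl and 42.4 to 81.1 in Pt-CrAT at 12 months, and 43.5 to 112 against 28.4 to 38.9 at 24 months. At 15 months it went against the labels, with 34.3 to 60.0 in the libraries labelled fl/fl and 63.1 to 72.6 in those labelled Pt-CrAT. The animals at 15 months are therefore called by their labels. Whether these labels were exchanged was not tested. If they were, every comparison of 15 with 24 months would mix genotype with age. All 8 proximal tubule markers examined were detected in these libraries.

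Mitochondria translate the few proteins of their own genome on a dedicated ribosome whose protein subunits are all encoded in the nucleus. These subunits, like nearly all mitochondrial proteins, are made in the cytosol and enter through the TOM complex of the outer membrane (Tomm genes). From there the TIM23 complex takes proteins to the matrix and inner membrane, the TIM22 complex inserts carrier proteins into the inner membrane, and small Timm chaperones escort hydrophobic proteins across the space between the membranes. Proximal tubule cells are rich in mitochondria, which fuel the reabsorption of solutes.

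The promoters of 4 members are shown because their genes carry the results below or because they hold the motifs counted among the members. They are RefSeq sequences on GRCm38.p6, from 250 bases before to 50 bases after the gene start, written 5' to 3' on the gene's strand, with capitals marking a match to a motif. The motifs searched on both strands were CCGGAAG (core of the GABP site), GCGCANGCGC (core of the NRF-1 site) and AAGATGGC (core of the YY1 site).
Timm13 (chr10:80900920-80901219, minus strand): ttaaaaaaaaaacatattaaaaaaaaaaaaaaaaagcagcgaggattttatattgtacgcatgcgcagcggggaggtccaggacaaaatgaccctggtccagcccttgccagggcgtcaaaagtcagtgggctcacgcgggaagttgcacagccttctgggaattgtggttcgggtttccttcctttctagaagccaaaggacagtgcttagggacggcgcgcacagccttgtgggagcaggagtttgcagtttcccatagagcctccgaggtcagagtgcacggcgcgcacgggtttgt
Timm10 (chr2:84826771-84827070, plus strand): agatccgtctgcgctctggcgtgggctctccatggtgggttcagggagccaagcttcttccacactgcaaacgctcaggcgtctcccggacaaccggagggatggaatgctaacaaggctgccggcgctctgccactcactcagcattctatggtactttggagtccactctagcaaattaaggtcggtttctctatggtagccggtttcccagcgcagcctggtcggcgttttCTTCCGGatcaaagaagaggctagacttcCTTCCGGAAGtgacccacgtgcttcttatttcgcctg
Mrps18a (chr17:46110754-46111053, plus strand): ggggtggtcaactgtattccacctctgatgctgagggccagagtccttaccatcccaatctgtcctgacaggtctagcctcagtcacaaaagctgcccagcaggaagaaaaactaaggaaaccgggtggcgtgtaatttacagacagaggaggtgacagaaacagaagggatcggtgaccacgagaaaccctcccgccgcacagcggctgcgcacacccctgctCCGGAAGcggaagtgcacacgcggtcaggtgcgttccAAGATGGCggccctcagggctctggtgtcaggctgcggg
Mrpl12 (chr11:120484387-120484686, plus strand): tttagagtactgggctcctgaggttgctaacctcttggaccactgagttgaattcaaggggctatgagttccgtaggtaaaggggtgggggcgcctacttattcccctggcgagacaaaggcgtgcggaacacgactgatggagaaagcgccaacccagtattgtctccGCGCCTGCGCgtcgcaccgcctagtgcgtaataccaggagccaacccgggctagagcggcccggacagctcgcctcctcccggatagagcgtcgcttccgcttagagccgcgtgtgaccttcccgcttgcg
The Timm13 window held none of the 3 motifs, that of Timm10 held the GABP core, that of Mrps18a held the GABP and YY1 cores, and that of Mrpl12 held the NRF-1 core.

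Of the members, 88 had an entry among the promoter sequences. The GABP core stood in 37.5% of them, against 17.96% of the 11595 genes of the count table with an entry. Its share was 36.8% in 68 ribosome members and 40.0% in 20 import members. The YY1 core stood in 17.6% of ribosome members and 5.0% of import members (1 gene), against 4.77% of genes of the count table. For the NRF-1 core the share was 17.0% of members and 10.3% of genes of the count table. At least 1 of the 3 motifs was found in 59.1% of members and 29.0% of genes of the count table. The GABP and YY1 matches overlapped in 0 members. These are matches of letters and not measured binding.

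**Figure D1:**
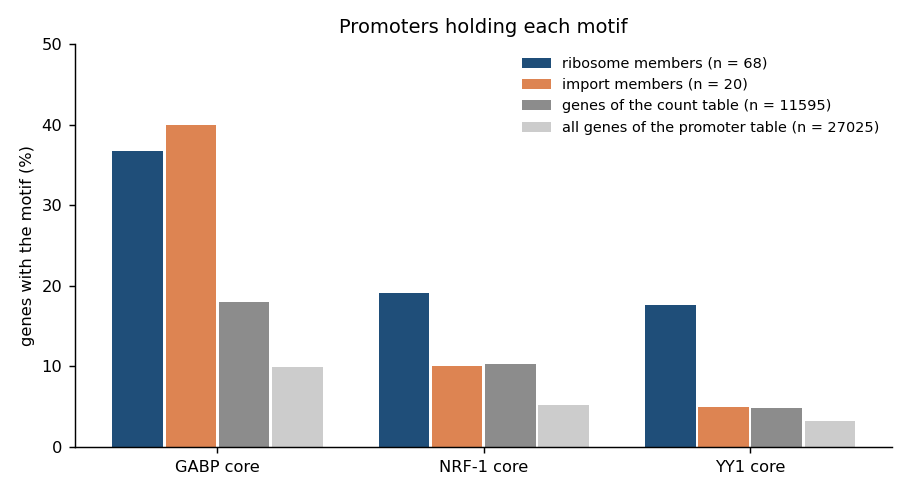
Share of promoters (percent) holding each motif among ribosome members, import members and the comparison genes. The GABP core was found in 36.8% of ribosome and 40.0% of import members, against 17.96% of genes of the count table.

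At 12 months, members moved in both directions: 13 were higher and 11 lower in Pt-CrAT than in fl/fl of 98 tested, by edgeR's quasi-likelihood test with Benjamini-Hochberg adjustment over all 15064 genes at a threshold of 0.05. The members called were 24.5% of those tested, beside 16.4% of all genes (8.41% higher, 7.95% lower). Most of the 13 that rose belonged to the large ribosomal subunit, while 3 of the 5 import members called were lower. The median log2 fold change was 0.13 over 75 ribosome members and -0.24 over 23 import members, beside 0.00 over all genes tested. In bulk tissue, fewer cells of a type and less RNA per cell cannot be told apart.

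**Figure D2:**
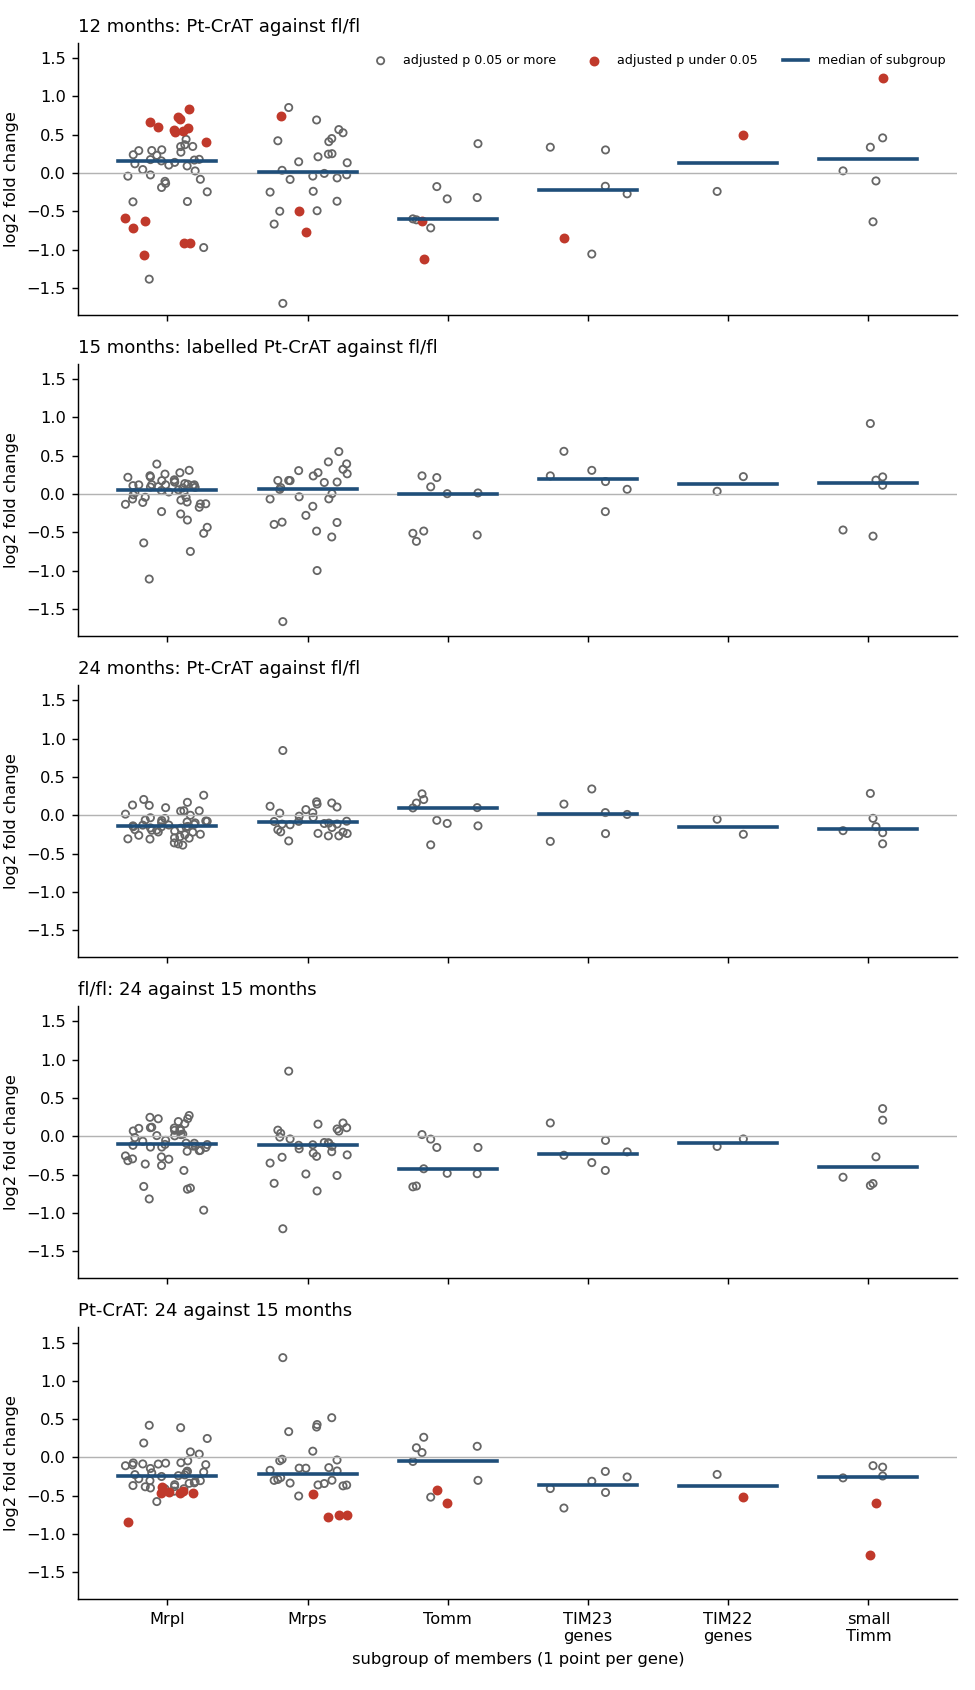
Log2 fold change of each tested member (points) by subgroup of the ribosome and the import machinery in each comparison. At 12 months 8 of 9 Tomm members lay below 0 and 30 of 47 Mrpl members above it.

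Timm13 (ENSMUSG00000020219; GRCm38 chromosome 10, 80899450 to 80900969, minus strand), a small Timm chaperone that works with Timm8 proteins, had the largest rise at 12 months. Its level was 140, 133 and 91.5 CPM in the fl/fl libraries and 366, 276 and 217 CPM in Pt-CrAT libraries at 12 months. The groups did not overlap, and the log2 fold change was 1.24 (SE 0.18, edgeR adjusted p = 0.00236). The 3 fl/fl libraries at 12 months were the lowest of all 22: every other library held 199.6 to 366 CPM. The chow libraries among these others differ from them in both age and diet. An opposite-strand neighbour, Tmprss9, lies over the 3' end of Timm13 and held 0.132 to 5.38 CPM. Such a neighbour from the count table lies over the 3' end of 15 members, and the sources used here name no strand setting of the counting, so these reads could not be told apart.

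Of the other 5 small Timm members none passed at 12 months, among them Timm9 (log2 fold change 0.03, edgeR adjusted p = 0.954) and Timm10 (-0.10, edgeR adjusted p = 0.709). Timm8b, a partner in the same chaperone class, had 203, 184 and 139 CPM in fl/fl and 101, 107 and 130 CPM in Pt-CrAT, with no overlap (log2 fold change -0.64, SE 0.22, edgeR adjusted p = 0.0538). Timm22, the channel of the TIM22 complex, rose from 65.3, 89.3 and 98.9 CPM to 131, 128 and 99.3 CPM (log2 fold change 0.49, SE 0.16, edgeR adjusted p = 0.0376). Its lowest Pt-CrAT library barely exceeded its highest fl/fl library. Timm21, a TIM23 subunit that contacts the TOM complex, fell from 10.8, 10.4 and 14.2 CPM to 5.39, 6.90 and 7.18 CPM (log2 fold change -0.85, SE 0.25, edgeR adjusted p = 0.0267). It was the only 1 of 6 TIM23 members called. The presequence receptor Timm50 (0.34, edgeR adjusted p = 0.17) and the motor anchor Timm44 (-0.17, edgeR adjusted p = 0.459) did not pass. Nor did Timm17a (-0.27, edgeR adjusted p = 0.0921) and Timm23 (-1.06, edgeR adjusted p = 0.0992). Timm23 held only 0.575 to 1.83 CPM in these 12-month libraries.

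Tomm40, the pore of the outer membrane (ENSMUSG00000002984; chromosome 7, 19701313 to 19715438, minus strand), fell at 12 months. It held 27.2, 13.4 and 20.3 CPM in fl/fl and 6.12, 6.90 and 14.2 CPM in Pt-CrAT (log2 fold change -1.12, SE 0.30, edgeR adjusted p = 0.0186). The groups overlapped, since 1 Pt-CrAT library lay above the lowest fl/fl library. Tomm34, a cytosolic co-chaperone of import, fell from 25.5, 19.97 and 26.3 CPM to 14.2, 16.8 and 15.3 CPM without overlap (log2 fold change -0.63, SE 0.19, edgeR adjusted p = 0.0301). The receptors had log2 fold changes of -0.60 for Tomm22 (edgeR adjusted p = 0.081), -0.32 for Tomm70a (0.341) and -0.18 for Tomm20 (0.376), none past the threshold. Over the 9 Tomm members the median was -0.60.

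**Figure D3:**
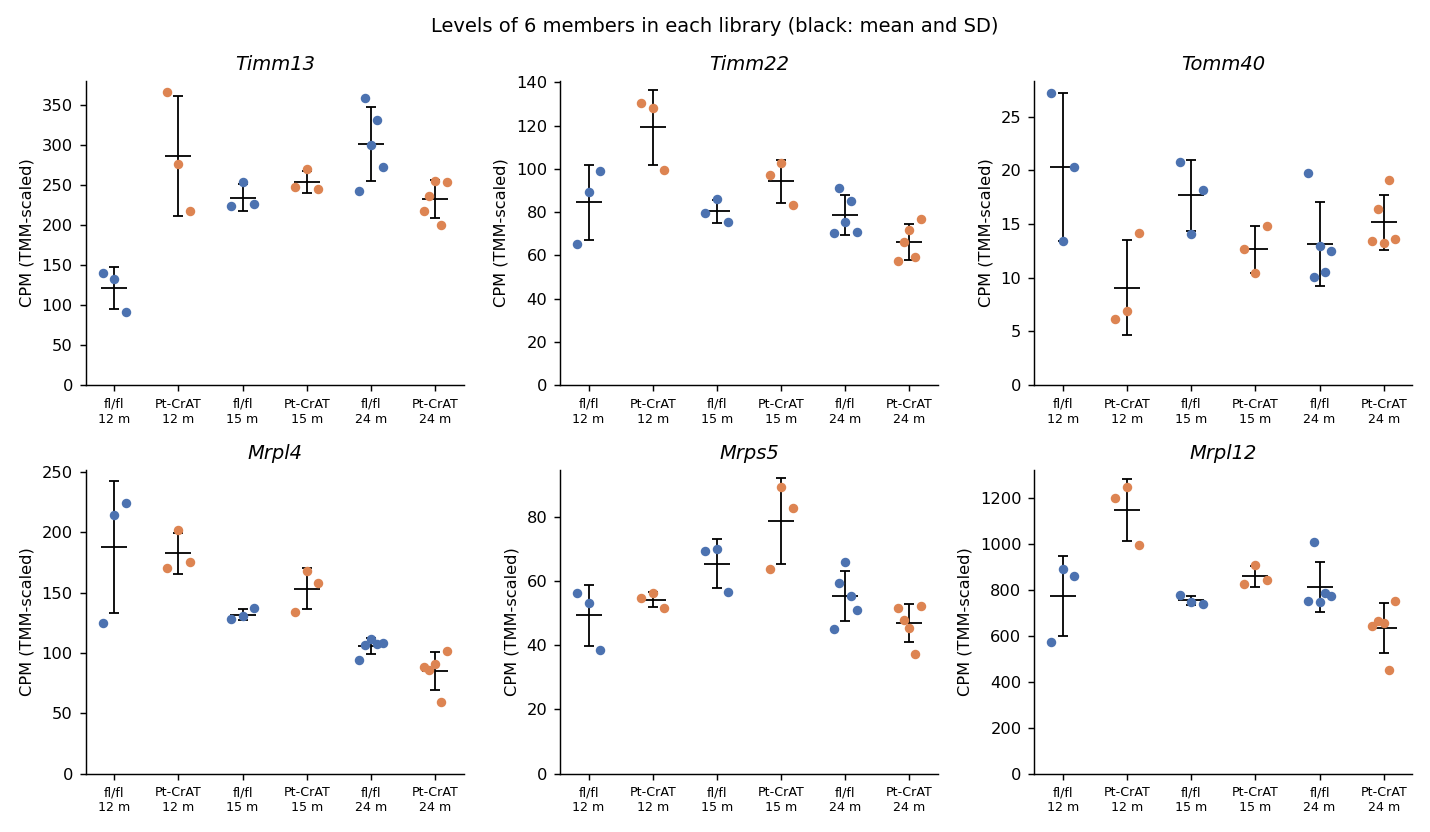
Level in CPM of 6 members (Timm13, Timm22, Tomm40, Mrpl4, Mrps5 and Mrpl12) in each library (points) by group, with the mean and SD. Timm13 stood at 91.5 to 140 CPM in fl/fl at 12 months and at 199.6 to 366 CPM in all other libraries. Age and diet change together between 12 months and the later ages.

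Of 47 Mrpl members tested, 10 were higher and 6 lower. Mrpl58, a peptidyl-tRNA hydrolase built into the ribosome, had 44.8, 61.7 and 73.8 CPM in fl/fl and 127, 117 and 76.3 CPM in Pt-CrAT (log2 fold change 0.83, SE 0.21, edgeR adjusted p = 0.0146). Mrpl12, a stalk protein, held 573.8, 889 and 862 CPM and 1201, 1248 and 996 CPM (log2 fold change 0.57, SE 0.18, edgeR adjusted p = 0.0340). In both genes the Pt-CrAT libraries lay above the fl/fl libraries. Mrpl28, Mrpl46, Mrpl30, Mrpl19 and Mrpl48, all large-subunit proteins, rose by 0.58 to 0.73 on the log2 scale.

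Mrpl3, near the peptidyl transferase centre (ENSMUSG00000032563; chromosome 9, 105053239 to 105079888, plus strand), fell from 49.2, 32.9 and 39.3 CPM to 17.0, 22.1 and 25.0 CPM. The groups did not overlap (log2 fold change -0.91, SE 0.19, edgeR adjusted p = 0.00725). Mrpl50 fell from 91.2, 35.6 and 36.3 CPM to 20.4, 23.7 and 32.8 CPM (log2 fold change -1.07, SE 0.30, edgeR adjusted p = 0.0237), with 1 fl/fl library far above the other two. Mrpl1 (-0.72), Mrpl39 (-0.91) and Mrpl10 (-0.63) fell as well. Of 28 Mrps members 3 were called: Mrps23 was higher by 0.75, Mrps14 (-0.77) and Mrps2 were lower, and the median was 0.01. Neither Mrpl44 (-0.97, edgeR adjusted p = 0.0739) nor Mrps15 (0.42, edgeR adjusted p = 0.174) passed.

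Averaged over members as log2 deviations from each gene's mean over the 22 libraries, the import members were at 0.24 to 0.28 in the 3 fl/fl libraries and at 0.09 to 0.13 in the 3 Pt-CrAT libraries at 12 months, without overlap. The ribosome members were at 0.06 to 0.20 and 0.17 to 0.20, which overlapped. This mean counts each gene alike, whatever its level. Summed in CPM at 12 months, the import members did overlap, at 1696 to 1893 in fl/fl and 1725 to 1854 in Pt-CrAT. Single import members did not overlap between the groups in 12 of 23 cases (8 lower, 4 higher) and ribosome members in 24 of 75 (8 lower, 16 higher), beside 30.1% of all genes (13.8% lower, 16.3% higher).

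**Figure D4:**
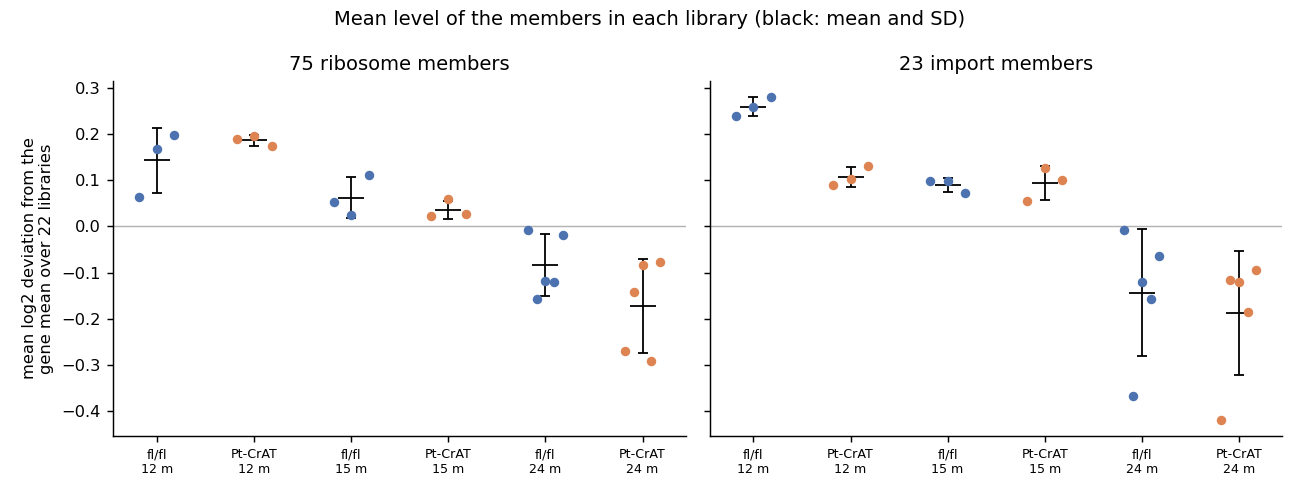
Mean log2 deviation of the 75 ribosome and 23 import members from each gene's mean over 22 libraries, by library (points) and group (mean and SD). Import members at 12 months stood at 0.24 to 0.28 in fl/fl and 0.09 to 0.13 in Pt-CrAT.

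Genes that work with the members were mixed in the same comparison. Of 25 genes of mitochondrial translation and ribosome assembly 3 were higher and 2 lower: the elongation factor Tufm rose by 0.73 on the log2 scale, while its exchange factor Tsfm (-0.94) and the elongation factor Gfm1 (-1.05) fell. Of 22 import partners 3 were higher and 3 lower, among them the oxidase Gfer (1.08) and the matrix chaperone Hspa9 (-0.55). Of 17 mitochondrial aminoacyl-tRNA synthetases, which charge tRNAs, 2 were higher and 2 lower. Of 5 ribosome proteins with other names Gadd45gip1 alone was called (0.72).

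The 12-month calls rested on few libraries, for the members as for all genes. Without CrAT12MLFD328 the only member called was Timm13, beside 0.344% of all genes. Without CrAT12MLFD337 Mrpl3 and Timm13 were called, beside 2.54% of all genes, and without Wt12MLFD326 Mrpl1, Mrpl3, Mrpl48 and Timm13, beside 2.65%. Timm13 kept a log2 fold change of 1.04 to 1.41 when each library of the comparison was left out in turn (edgeR adjusted p from 4.95e-04 to 0.0107). With the 6 libraries alone in the fit, 0 members and 1 of 13759 genes passed in edgeR, and Timm13 stood at 1.22 (edgeR adjusted p = 0.158). In that fit 32 members had an unadjusted p under 0.05, which was not counted over all genes. The import median remained between -0.27 and -0.22 over the single leave-outs, and the ribosome median between 0.04 and 0.21.

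Base composition moved with this comparison, over all genes as over the members. Spearman's rank correlation of log2 fold change with GC content at the transcript end was 0.267 over 15035 genes tested. Over the 98 members it was 0.264. The last 500 bases of the transcript had a median GC content of 49.4% in the 13 members that rose and 41.0% in the 11 that fell, beside 44.2% over all genes tested. The mean level of the raised minus that of the lowered members was -1.22, -0.31 and -0.44 on the log2 scale in the fl/fl libraries and 1.23, 0.93 and 0.20 in the Pt-CrAT libraries. The slope of a library's log2 levels over GC was -0.16 per 10 percentage points in Wt12MLFD326 and between 0.09 and 0.22 in the other 5 libraries. With a GC correction per library 7 members were higher and 11 lower, beside 13.9% of all genes called, and Timm13 rose by 1.01 (edgeR adjusted p = 0.00398).

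**Figure D5:**
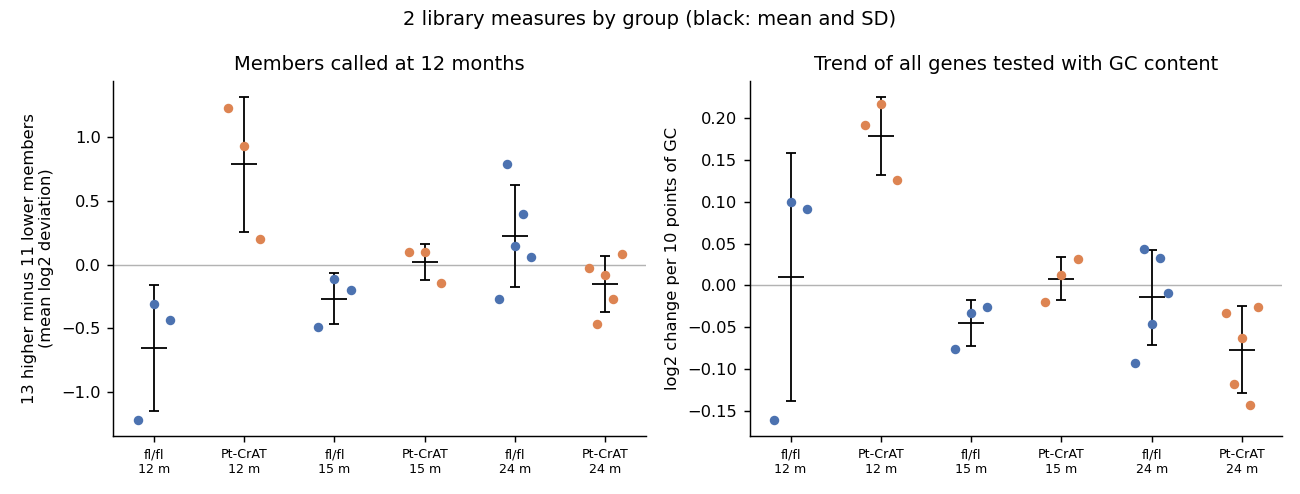
Mean level of the members raised minus that of the members lowered at 12 months, in each library, beside the library's slope of log2 level over GC content. The fl/fl libraries at 12 months lay between -1.22 and -0.31 and the Pt-CrAT libraries between 0.20 and 1.23, which the choice of members fixed.

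Markers of fat cells also moved with genotype at 12 months. Of 6 adipocyte genes 5 were higher in Pt-CrAT, and none was at 0 throughout; their sum was 133 to 275 CPM in fl/fl and 350 to 872 CPM in Pt-CrAT. Of 8 proximal tubule markers 1, Lrp2, was called lower (-1.12), while 6 had values above 0 and the median was 0.20. Their sum overlapped, at 46839 to 60682 CPM in fl/fl and 56838 to 69503 CPM in Pt-CrAT. Some other marker sums, like that of the adipocyte genes, did not overlap, but none of their single markers passed the threshold. The 3 podocyte genes summed to 230 to 301 CPM in fl/fl and 153 to 221 CPM in Pt-CrAT. For 3 distal tubule genes the sums were 569.96 to 608.6 CPM and 453 to 551 CPM. The sum of 4 collecting duct genes was 444 to 543 CPM and 564 to 642 CPM. The part of any of these in the members' differences was not tested.

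At 15 months, 0 of 98 members passed between the libraries labelled Pt-CrAT and fl/fl in edgeR, beside 0% of all genes. An unadjusted p under 0.05 in edgeR was found for 8 members, beside 1249 of all 15064 genes tested. DESeq2 and limma-voom also called 0. The smallest p-values belonged to the large-subunit protein Mrpl39 (log2 fold change -0.75, SE 0.30), Timm8b (-0.55, SE 0.22), Mrps18a (0.55, SE 0.23) and the receptor Tomm70a (-0.53, SE 0.23), each at an edgeR adjusted p of 0.581. The medians were 0.06 for the ribosome and 0.10 for import.

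At 24 months, 0 of 98 members passed in edgeR, beside 0% of all genes. An unadjusted p under 0.05 was found for 10 members, beside 1409 of all 15064 genes tested. DESeq2 and limma-voom called 0 members. Values lay below 0 for 69 of 98 members, with medians of -0.12 for the ribosome and -0.05 for import. The import median was 0.013 without Wt24Mchow145 and 0.017 without CrAT24Mchow123, so its sign rested on single libraries. Mrpl54, a large-subunit protein, had 67.1, 73.2, 72.01, 76.8 and 70.2 CPM in fl/fl and 42.7, 54.9, 62.9, 48.8 and 65.0 CPM in Pt-CrAT. It was the only member whose groups did not overlap (log2 fold change -0.39, SE 0.12, edgeR adjusted p = 0.449), 1.02% of members beside 1.53% of all genes (0.737% higher, 0.797% lower). Timm13 stood at -0.37, Mrpl12 at -0.36 and Timm50 at -0.34, none past the threshold.

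From 15 to 24 months in fl/fl, 0 of 98 members passed in edgeR, beside 1.3% of all genes (0.823% higher, 0.478% lower). There were 19 members with an unadjusted p under 0.05, beside 3266 of all 15064 genes tested. DESeq2 called 3 members (beside 4.84% of all genes) and limma-voom 0. The median was -0.11 for the ribosome and -0.25 for import. The receptor Tomm22 had 69.5, 69.3 and 71.6 CPM in the libraries labelled fl/fl at 15 months and 60.1, 26.7, 48.3, 39.3 and 47.8 CPM at 24 months (log2 fold change -0.66, SE 0.21, edgeR adjusted p = 0.0931). All later libraries lay below the earlier ones. Timm44 (-0.44, edgeR adjusted p = 0.086), Timm8b (-0.61, edgeR adjusted p = 0.0959) and Mrps9 (-0.35, edgeR adjusted p = 0.0947) also missed the threshold. Without Wt24Mchow145, 5 members were called, beside 5.04% of all genes. The groups did not overlap for 14 members (13 lower, 1 higher), which is 14.3% beside 17% of all genes (8.26% lower, 8.7% higher).

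From 15 to 24 months in Pt-CrAT, 16 of 98 members were lower and 0 higher in edgeR (16.3%, beside 11.3% of all genes, 5.61% higher and 5.71% lower). They were 11 ribosome members (Mrpl2, Mrpl4, Mrpl11, Mrpl14, Mrpl28, Mrpl54, Mrpl57, Mrps5, Mrps18a, Mrps24 and Mrps26) and 5 import members (Tomm20, Tomm7, Timm22, Timm10 and Timm8a1). Values lay below 0 for 82 of 98 members. The medians were -0.24 for the ribosome and -0.27 for import, beside 0.04 over all genes. The groups did not overlap for 15 of the 16, the exception being Mrpl14. Over all 98 members they did not overlap for 33 (32 lower, 1 higher), which is 33.7% beside 21.8% of all genes (11.3% lower, 10.5% higher).

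Mrpl4, a large-subunit protein (ENSMUSG00000003299; chromosome 9, 21002738 to 21008839, plus strand), had 134, 168.01 and 158 CPM in the libraries labelled Pt-CrAT at 15 months and 88.1, 86.3, 91.2, 59.5 and 102 CPM at 24 months (log2 fold change -0.85, SE 0.16, edgeR adjusted p = 0.00288). Mrps5, of the small subunit (ENSMUSG00000027374; chromosome 2, 127587222 to 127606829, plus strand), had 63.8, 89.4 and 82.7 CPM and then 51.7, 47.8, 45.5, 37.3 and 52.2 CPM (log2 fold change -0.75, SE 0.15, edgeR adjusted p = 0.00347). In both, every 24-month library lay below every 15-month library. In fl/fl the same change was -0.32 for Mrpl4 and -0.24 for Mrps5, neither past the threshold.

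Mrps24 and Mrps18a fell by 0.77 and 0.76 on the log2 scale. Mrps18a held 118, 167.9 and 193 CPM and then 101, 96.4, 110, 54.3 and 111 CPM. Its opposite-strand neighbour Rsph9 was at 16.9 to 35.8 CPM. Among import genes, Timm10, the partner of Timm9 in the small chaperone ring, fell from 34.5, 53.5 and 48.4 CPM to 22.02, 31.3, 33.9, 29.3 and 33.7 CPM (log2 fold change -0.60, SE 0.15, edgeR adjusted p = 0.0139). Its highest 24-month library lay just under its lowest 15-month library. Tomm7, a small subunit of the outer pore complex, fell from 315, 410 and 365 CPM to 215, 256, 226, 233 and 273 CPM (log2 fold change -0.59, SE 0.16, edgeR adjusted p = 0.0203). Timm22 (-0.51) and the receptor Tomm20 (-0.43) fell too. Timm8a1 (-1.28) passed at a level under 5 CPM.

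Only Mrpl4 and Mrps5 were still called without CrAT15Mchow185 (beside 2.73% of all genes) or without CrAT15Mchow204 (2.55%). The same held without both CrAT24Mchow123 and CrAT24Mchow136 (2.8%). In Pt-CrAT libraries the slope of log2 levels over GC was -0.02 to 0.03 per 10 percentage points at 15 months. At 24 months it was -0.14 to -0.03. With the GC correction 12 members were lower and 0 higher, beside 11.2% of all genes. Mrpl2, Mrpl14, Mrpl28 and Mrpl54 no longer passed. The part of GC content in the members' fall was not tested. The difference in this age change between the genotypes passed for 0 of 98 members in edgeR, beside 0% of all genes. An unadjusted p under 0.05 was found for 17 members, beside 2255 of all 15064 genes tested. DESeq2 and limma-voom called 0 members.

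Other genes also differed between the libraries labelled Pt-CrAT at 15 and at 24 months. Crat itself was 63.1 to 72.6 CPM at 15 months, where it went against the labels, and 28.4 to 38.9 CPM at 24 months. Of 8 proximal tubule markers 4 were lower, among them the glucose transporter Slc5a2 (-1.24) and the phosphate transporter Slc34a1 (-0.79). Their sum was 42810 to 48690 CPM at 15 months and 9777 to 37638 CPM at 24 months, and none was at 0 throughout. Of 3 distal tubule markers 2 were lower, with a sum of 450.1 to 513 CPM at 15 months and 224.9 to 365 CPM at 24 months. Collecting duct markers rose in 2 of 4 cases (sum 329.9 to 559 CPM, then 615 to 1201 CPM) and plasma cell markers in 2 of 3 (82.8 to 92.4 CPM, then 142 to 449 CPM). Of 4 macrophage markers 1, Adgre1, and 1 of 2 of the thick ascending limb, Slc12a1, rose as well. Among 6 adipocyte genes 1 was called lower. Their values lay below 0 for 5 and above 0 for 1, with a median log2 fold change of -1.87. The adipocyte sum was 191.7 to 271.7 CPM at 15 months and 67.1 to 183.3 CPM at 24 months, without overlap. The part of these in the members' fall was not tested. Of 22 import partners 2 were lower (Immp2l and Mtx1), of 17 aminoacyl-tRNA synthetases 2 (Fars2 and Lars2) and of 25 translation and assembly genes 1 (Mtg2), and none was higher.

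The genotype difference itself changed between 12 and 24 months for 24 of 98 members in edgeR (7 higher, 17 lower at 24 months), beside 17% of all genes (8.34% higher, 8.66% lower). Age and diet change together in this comparison. Timm13 had the largest change among the members called: its genotype difference was 1.24 at 12 months and -0.37 at 24 months (log2 change -1.61, SE 0.23, edgeR adjusted p = 0.00525). Without CrAT12MLFD328, only Timm13 and Mrpl54 remained of the 24, beside 1.33% of all genes.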

How the data were processed

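Kidney cortex RNA of 22 mice was made into libraries with the Lexogen QuantSeq 3' FWD kit, per the labels' protocols. Every test used the raw read counts per gene that the authors deposited. They also deposited a normalized signal, each count divided by 1 size factor per library, used here for gene names and a check. R 3.4.3 and DESeq2 1.18.1 are named in the submitters' processing notes. The sources used here name no aligner, counter or strand setting. GENCODE release M21 gave coordinates.

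Tests ran in edgeR 4.0.16 under R 4.3.3 with TMM scaling, filterByExpr, the robust quasi-likelihood test, all 22 libraries in 1 model of 6 groups with 16 residual degrees of freedom, and 7 contrasts. DESeq2 1.42.0, limma 3.58.1 voom, other scaling, no filter, a GC correction and leave-outs were alternatives. Levels are TMM-scaled CPM. The biological coefficient of variation was 20.5%. Reads carry no molecular identifiers and are not independent molecules. On simulated counts (14808 genes) the 12-month test recovered 14% of 1.5-fold and 74% of 2-fold changes, each set in 50 genes. In that simulation few genes changed and the noise was drawn for each gene apart, without shifts shared within a library. Recovery in the real data can therefore differ.

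Members and lists were chosen with earlier results of these data known. Named members were those past the threshold with at least 5 CPM and the largest changes, or those with the smallest p where few or none passed; subunits of fixed roles were added. Timm8a1, Mrpl14 and members listed by name only are exceptions chosen after their values were seen. The genotype comparisons of Tomm34 and Timm8b in the youngest mice are exceptions too. Both genes met the rule only in other comparisons.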

Additional observations from a re-analysis of the deposited data

Results flagged for a closer look

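In the groups of 5 libraries at 24 months, 1 library stood apart from the other 4 in 8 of 76 cases examined. Chance gives about 3.8, but the cases share libraries and include members named for their changes in these data. An excess over chance cannot be read from these numbers. Wt24Mchow154 held the highest fl/fl level of Mrpl12 (1008 CPM, others 749.8 to 786), Mrpl58 (97.3 CPM, others 60.7 to 70.3), Mrps18a (151 CPM, others 99.5 to 111) and Mrps24 (217 CPM, others 127 to 153). CrAT24Mchow136 held the lowest Pt-CrAT level of Mrps18a (54.3 CPM, others 96.4 to 111) and Mrps34 (49.0 CPM, others 78.1 to 83.2). CrAT24Mchow124 was lowest for Mrpl48 (27.4 CPM, others 32.8 to 34.6). CrAT24Mchow123 had the lowest mean log2 deviation of import members (-0.42, others -0.19 to -0.09).

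The genotype difference at 24 months differed from that at 12 months, by edgeR's test of the difference, for 24 of 98 members, beside 17% of all genes. The 15 members named here were picked from these 24 for the largest changes in each direction. The test uses the same 12-month libraries as the calls at 12 months. The genotype difference was higher at 24 months for Tomm40 (log2 change 1.32), Mrpl50 (1.28), Timm21 (0.997), Mrpl3 (0.97), Tomm34 (0.91), Mrpl1 (0.85) and Mrps14 (0.85). It was lower for Timm13 (-1.61), Mrpl58 (-1.13), Mrpl46 (-1.10), Mrpl28 (-0.99), Mrpl30 (-0.97), Mrps23 (-0.97), Mrpl54 (-0.94) and Mrpl12 (-0.93).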

How the results depend on the processing

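No paired analysis was possible because no replicate number is shared between groups. The number of members higher at 12 months was 13. It became 16 with DESeq2, 12 with limma-voom and 7 with the GC correction. With only the libraries compared it was 0, and without both Wt12MLFD326 and CrAT12MLFD328 it was 1. Single leave-outs gave 1 to 19. The number lower was 11. DESeq2 gave 15 and limma-voom 8. Only the libraries compared gave 0, both left out gave 0, and single leave-outs gave 0 to 15. Calls over all genes moved too, counted in either direction. They were 21.9% with DESeq2, 12.5% with limma-voom and 13.9% with the GC correction. The share was 0.00727% with only the libraries compared, 0.123% with both left out and 0.344% to 22.8% over single leave-outs. From 15 to 24 months in fl/fl, DESeq2 called 3 members and leave-outs 0 to 5, against 0. Beside these stood 4.84% and 0.0195% to 5.04% of all genes. In Pt-CrAT, 16 members became 12 with the GC correction, 10 with only the libraries compared, and 2 without CrAT24Mchow123 and CrAT24Mchow136. Shares over all genes were 11.2%, 8.8% and 2.8%. DESeq2 called 24 members and limma-voom 17, beside 14.4% and 11% of all genes. Leave-outs gave 2 to 16 members, beside 2.55% to 11.8% of all genes. For the change of the genotype difference from 12 to 24 months, 24 became 15 with only the libraries compared (beside 8.75% of all genes). DESeq2 gave 30 (22.3%) and limma-voom 21 (13.9%). The number was 1 without Wt12MLFD326 and CrAT12MLFD328 (0.0325%), and 2 to 36 over leave-outs (1.33% to 23.6%). At 15 and at 24 months leave-outs gave 0 members throughout, beside at most 0.0133% of all genes. The causes were not tested. These are numbers of calls and can include members not called otherwise. The import median at 24 months, -0.05, turned to 0.013 without Wt24Mchow145, 0.017 without CrAT24Mchow123 and 0.018 without CrAT24Mchow123 and CrAT24Mchow136. Depth limits members such as Timm23, at 0.389 to 1.83 CPM in every library.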
